A study of Mus musculus with 6 samples.

Results

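The Sprouty genes Spry1, Spry2 and Spry4, the Sprouty-related genes Spred1 and Spred2, the ETS transcription factor genes Etv1, Etv4 and Etv5, and Phlda1 were followed in mouse embryo fibroblasts that lack p38α or have it. These 9 genes were taken by name among the 10634 genes that could be named on the array. Each was found by 1 gene probe, so 9 of 19801 gene probes are described. Knockout (KO) cells were p38α-/- fibroblasts, with 3 cultures, and wild-type (WT) cells had intact p38α, also with 3 cultures. Both came from a mixed 129/svev × C57Bl/6 background, had been immortalized spontaneously by the 3T3 protocol, which is serial passage, and carried a stably transduced H-Ras G12V, an oncogenic Ras that stays switched on. Cultures were grown for 72 h in medium with 10% serum and taken at 70% to 90% confluence. No group without H-Ras G12V was included. By the labels the 3 cultures are biological replicates, and whether they stem from more than 1 line is not stated. If each genotype was 1 immortalized line, genotype and line cannot be told apart, and the p-values measure only the spread between cultures.

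Ras passes signals from growth factor receptors through the kinases Raf, MEK and ERK to the nucleus. Among the genes that active ERK switches on are its own brakes. Sprouty proteins bind adaptors and kinases of the receptor pathway and dampen it, and Spred proteins bring neurofibromin, which inactivates Ras, to the membrane. Etv1, Etv4 and Etv5 form the PEA3 branch of the ETS family, transcription factors whose genes are induced by receptor and Ras signalling. Phlda1 encodes a small pleckstrin homology-like protein and is often read as a gene of ERK output. The product of Mapk14, p38α, belongs to a parallel MAP kinase branch that responds to stress.

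Promoter windows are shown for 2 Sprouty relatives that went opposite ways and for 2 Etv genes whose windows hold the ETS core. They are RefSeq sequences on GRCm38.p6, read 5′ to 3′ on the gene's own strand, 250 bases before the annotated start and 10 after it. Capitals mark the ETS core GGAAGT on either strand. The Spry1 window is chr3:37639697-37639956, plus strand, and the Spry2 window is chr14:105896810-105897069, minus strand. The Etv1 window is chr12:38779832-38780091, plus strand, and the Etv5 window, at the second of 2 annotated starts, is chr16:22438359-22438618, minus strand.
Spry1: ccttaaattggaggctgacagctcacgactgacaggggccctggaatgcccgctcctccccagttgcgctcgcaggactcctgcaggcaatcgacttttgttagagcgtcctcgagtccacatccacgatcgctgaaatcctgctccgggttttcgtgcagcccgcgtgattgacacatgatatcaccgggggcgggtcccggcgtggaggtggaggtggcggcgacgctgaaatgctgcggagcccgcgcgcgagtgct
Spry2: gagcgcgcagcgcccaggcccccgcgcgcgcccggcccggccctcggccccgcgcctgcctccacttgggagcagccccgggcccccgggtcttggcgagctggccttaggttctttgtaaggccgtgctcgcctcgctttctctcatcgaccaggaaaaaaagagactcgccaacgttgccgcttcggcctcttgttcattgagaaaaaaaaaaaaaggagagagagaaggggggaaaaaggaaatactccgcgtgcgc
Etv1: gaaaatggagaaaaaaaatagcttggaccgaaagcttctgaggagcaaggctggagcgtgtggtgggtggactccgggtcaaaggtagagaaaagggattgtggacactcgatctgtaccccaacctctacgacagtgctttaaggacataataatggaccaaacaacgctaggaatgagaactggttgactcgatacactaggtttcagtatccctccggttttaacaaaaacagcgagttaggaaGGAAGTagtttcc
Etv5: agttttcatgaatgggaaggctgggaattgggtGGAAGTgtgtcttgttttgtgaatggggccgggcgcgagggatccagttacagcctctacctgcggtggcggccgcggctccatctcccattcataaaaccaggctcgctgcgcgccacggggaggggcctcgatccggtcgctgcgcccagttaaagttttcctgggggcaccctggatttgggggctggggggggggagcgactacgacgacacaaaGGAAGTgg

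Windows with 50 bases after the start were searched on both strands for 6 of the 9 genes, 8 windows in all. No window was searched for Spry4, Etv4 or Phlda1. Any window of the 9 genes on chromosome 18, where Spry4 lies, was left out. Neither TGANTCA, the AP-1 motif, nor CCGGAAG, a long form of the ETS core, matched any of the 8, while 7.81% and 8.86% of all 32851 windows held them. GGAAGT, added after these 2 had no match and able to overlap CCGGAAG, matched 1 Spred2, 1 Etv1 and 1 Etv5 window, against 23.8% of all windows. Counted from the 5′ end of the window, the match in Etv1 spans bases 248 to 253, across the start site, and Etv5 has 1 at bases 34 to 39 and 1 at 253 to 258. Such matches describe letters, not sites of binding. The Spry1 window had 64.3% G and C and the Spry2 window 62.7%, against a median of 52.7% over all windows, so these 2 windows are alike in composition although the genes moved apart.

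RNA was measured as the fluorescence of 1 spot per gene on 6 CodeLink arrays, 1 per culture. Spot intensity minus local background is given per array, and the tests used log2 values after background correction with an offset of 50 and quantile normalization. Between 8677 and 10232 gene probes were above background on an array by the scanner software's mark, fewest on KO replicate 3, whose median local background was 61 units against 49 to 53 on the other arrays. Mapk14 had 17.6, 18.6 and 8.35 units in KO, against 60.8, 70.6 and 68.8 in WT, a log2 difference of -0.94 (limma adjusted p = 7.8e-05), with 1 of 3 KO arrays above background. The Mapk14 difference was -2.24 with offset 0 and -2.53 with the authors' intensities. Hras differed by 0.31 (adjusted p = 0.14). Neither probe's place relative to the deletion or the transduced Ras is known, so the first does not test the deletion itself. The fibroblast markers Vim and Col1a2 were above background on all 6 arrays, while Thy1 and Lum were near background on all of them and Col1a1 and Col3a1 were not analysed here. Of 8 measured fibroblast markers 2 rose and 2 fell, with summed intensities of 16496 to 23276 units in KO and 10220 to 12548 in WT. Most of each sum was Vim alone, with 21219, 20253 and 14889 units in KO and 10576, 10798 and 8584 in WT.

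In KO cells 6 of the 9 genes were higher, 1 was lower and 2 did not pass the test, limma with Benjamini-Hochberg adjustment over all 19608 probes tested and a threshold of 0.05. The genes that rose were Spry2, Spry4, Spred1, Etv1, Etv4 and Etv5, and the gene that fell was Spry1. Over all probes 22.5% passed, 10.4% higher and 12.1% lower, and among the 8018 probes above background on all 6 arrays 41.0% passed. In such bulk RNA, fewer cells of a type and less RNA per cell cannot be told apart. KO and WT log2 values did not overlap for 7 of the 9 genes, against 36.0% of all probes. The median log2 difference was 0.25 over the 9 genes and -0.01 over all probes. For Spry1, Spry2, Etv1, Etv4 and Phlda1 all 6 arrays were above background. For Spry4, Spred1 and Etv5 all WT arrays were near background, so these 3 passed through the KO arrays where they are high. Under median scaling 64.1% of all calls were higher in KO, against 46.3% under quantile normalization, and the 9 genes still gave 6 higher and 1 lower.

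**Figure D1:**
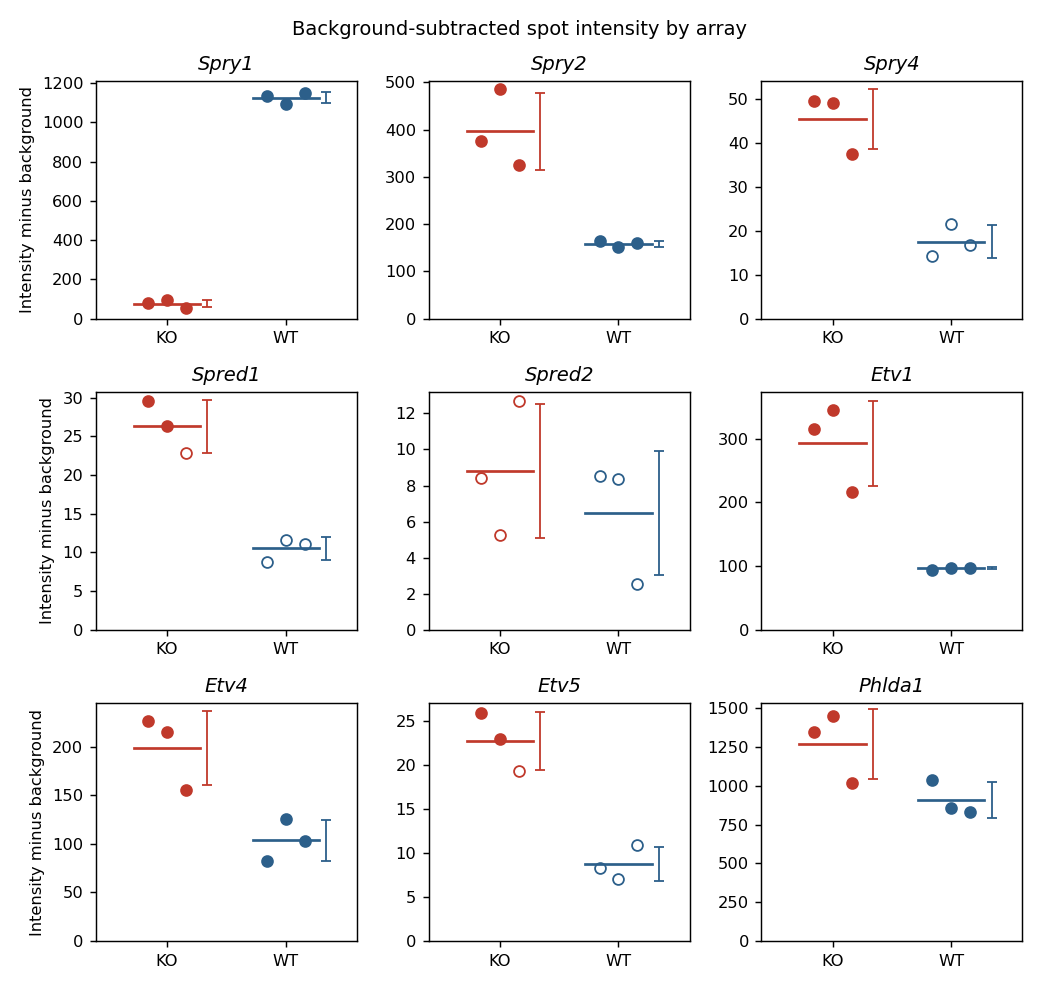
Background-subtracted spot intensity (linear scale from 0) of each gene on the 3 KO and 3 WT arrays, with filled points above background and open points near background. Lines are means and bars are SD (n = 3). Spry1 is the gene with KO points far below WT points, while Spred2 and Phlda1 have KO and WT points that overlap.

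The largest difference among the 9 was in Spry1, which limits signalling from growth factor receptors. Spry1 had 79.2, 92.5 and 56.6 units in KO replicates 1, 2 and 3, against 1135, 1092 and 1149 units in WT. All KO arrays lay far below all WT arrays, and the 3 WT values were close together. Normalized log2 signals averaged 6.93 ± 0.14 in KO and 10.36 ± 0.11 in WT (SD, n = 3 each). This is 10.8-fold lower in KO (log2 difference -3.44, SE 0.09, limma adjusted p = 2.6e-07), and 6 of the 19608 probes fell further. The size differed between settings. It was -4.15 with offset 0 and -4.19 with the authors' normalized intensities, which averaged 3.61 in KO and 65.2 in WT.

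Its relative Spry2, which also binds Grb2 and Cbl and restrains receptor signalling, went the other way. Spry2 had 377, 486 and 326 units in KO, against 165, 152 and 160 in WT. Every KO array was above every WT array, and KO replicate 2 was the highest. The log2 means were 8.66 ± 0.16 in KO and 7.86 ± 0.10 in WT (SD, n = 3 each), a rise of 1.74-fold (0.80, SE 0.09, limma adjusted p = 5.8e-04). The difference of Spry2 was 0.96 with offset 0, 1.02 with the authors' intensities and 0.66 with median in place of mean spot intensities. Spry4, a relative that likewise acts between receptors and Raf, had 49.5, 49.0 and 37.4 units in KO, against 14.3, 21.6 and 16.6 in WT. The groups did not overlap, and all 3 KO arrays but no WT array were above background, so its rise is at least 1.27-fold (0.37, SE 0.06, adjusted p = 0.0029). That bound sets the KO mean against the mean, over the WT arrays, of the higher of the probe's own signal and the lowest signal marked above background. Like every fold given below as at least, the bound is an estimate at offset 50 and not a lower confidence limit. With offset 0 the difference of Spry4 was 0.95 and with the authors' intensities 1.10, while it was 0.29 without background correction.

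Within each array the log2 signal of Spry1 minus that of Spry2 was -1.63, -1.77 and -1.80 in KO, against 2.48, 2.50 and 2.54 in WT. These are differences between probes, whose own brightness differs, so only their change between genotypes is read. The change of Spry1 relative to Spry2 was -4.24 and that of Spry1 relative to Spry4 -3.81, with no overlap between genotypes. Spry2 rose by 0.43 more than Spry4, but by 0.08 less with the authors' intensities. The exact two-sided permutation test over 6 arrays gave p = 0.1 for each of these 3 pairs, the smallest that 3 against 3 arrays allow, and 0.12 after adjustment over the 7 pairs compared in all. So the design cannot bring such a test below 0.05.

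Of the Spred genes 1 rose and 1 did not pass. Spred1 had 29.6, 26.4 and 22.9 units in KO, against 8.82, 11.6 and 11.1 in WT. The groups stood apart, although KO replicate 3 and all WT arrays were near background. Its rise was at least 1.07-fold (log2 difference 0.25, SE 0.05, limma adjusted p = 0.011), and the difference was 0.83 with offset 0. The call of Spred1 was lost without background correction (0.19, adjusted p = 0.073) and without WT replicate 1 (0.23, 0.051). Spred2 had 8.43, 5.28 and 12.7 units in KO, against 8.55, 8.38 and 2.53 in WT. All 6 values were near background and the groups overlapped, so no fold is given (0.03, 95% interval -0.12 to 0.19, adjusted p = 0.82). At this signal a fall or a small rise in Spred2 was not detectable. The change of Spred1 minus that of Spred2 was 0.21 (exact p = 0.1, adjusted 0.12). With Spred2 near background on all 6 arrays, this cannot show that the genes differ in their change.

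All 3 Etv genes were higher in KO. Etv1, a transcription factor of the PEA3 branch, had 315, 345 and 217 units in KO, against 94.5, 97.4 and 96.9 in WT. The WT arrays were within a few units of each other and every KO array was above them. Log2 means were 8.29 ± 0.17 in KO and 7.34 ± 0.05 in WT (SD, n = 3 each), a rise of 1.94-fold (0.96, SE 0.09, limma adjusted p = 1.9e-04). The difference of Etv1 was 1.24 with offset 0 and 1.30 with the authors' intensities, so its size depends on the setting. Of all probes tested, 462 rose further than Etv1. Etv4, known as PEA3, had 226, 215 and 156 units in KO, against 82.2, 125 and 103 in WT. The groups did not overlap, but the gap between the lowest KO and the highest WT array was narrow beside the spread of WT. Etv4 rose 1.37-fold (0.46, SE 0.10, adjusted p = 0.013), and this call was lost with offset 0 (0.62, 0.073) and with the authors' intensities (0.67, 0.11).

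Etv5, known as ERM, had 26.0, 23.0 and 19.4 units in KO, against 8.33, 7.02 and 10.9 in WT. KO replicates 1 and 2 were above background and the other 4 arrays were near it. Its rise is at least 1.02-fold (log2 difference 0.23, SE 0.06, limma adjusted p = 0.024), while the difference was 0.86 with offset 0 and 1.12 with the authors' intensities. Etv5 is the least stable of the 7 calls, since it was lost without KO replicate 1 (adjusted p = 0.077), KO replicate 2 (0.070), WT replicate 1 (0.084) or WT replicate 2 (0.093), and without background correction (0.12, adjusted p = 0.42). Etv1 rose by 0.50 more than Etv4 and by 0.73 more than Etv5 (exact p = 0.1 each, adjusted 0.12). The size of the gap to Etv5 depends on the setting. Etv1 and Etv5 rose by 1.24 and 0.86 with offset 0 and by 1.30 and 1.12 with the authors' intensities, a narrower gap. Without background correction they rose by 0.97 and 0.12, a wider one. Between Etv4 and Etv5 the gap of 0.23 (exact p = 0.2, adjusted 0.20) turned to -0.24 with offset 0 and -0.45 with the authors' intensities.

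Phlda1, whose protein binds phosphoinositides, had 1347, 1452 and 1019 units in KO, against 1039, 856 and 830 in WT. WT replicate 1 lay above KO replicate 3, so the groups overlapped. The log2 difference was 0.15 (SE 0.10, 95% interval -0.08 to 0.38, limma adjusted p = 0.40), which leaves a rise or a small fall possible. Its relative Phlda2, an imprinted growth-restraining gene, had all KO arrays and no WT array above background and rose at least 1.72-fold (adjusted p = 4.0e-05), whereas Phlda3 differed by 0.04 (adjusted p = 0.79).

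**Figure D2:**
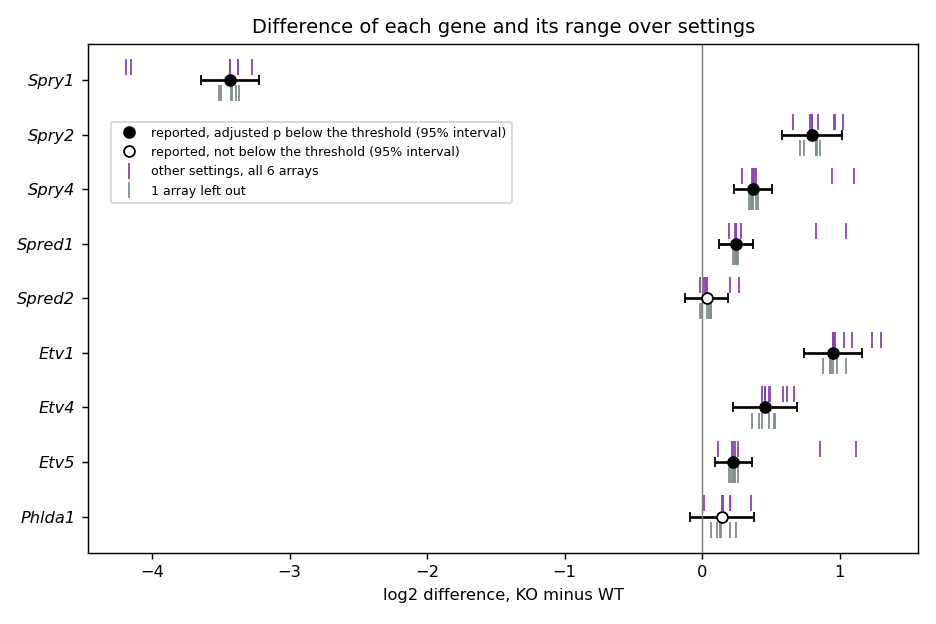
Log2 difference (KO minus WT) of each gene with its 95% interval, and ticks for the same difference under up to 8 other settings with all 6 arrays (above the point) or with 1 array left out (below it). Spry1 lies near -3.4, Etv1 and Spry2 near 0.96 and 0.80, and the ticks of Spry4, Spred1 and Etv5 reach 1.05 to 1.12 with the authors' intensities.

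KO replicate 3, where local background was highest and fewest probes exceeded it, had the lowest background-subtracted intensity of the 3 KO arrays for 8 of the 9 genes, all but Spred2. After normalization it was still the lowest of the KO arrays for 7 of them. Its part in the results was measured by leaving it out. Then Spry1 differed by -3.37, Spry2 by 0.83, Etv1 by 1.05 and Etv4 by 0.52, and the same 6 higher and 1 lower calls were made.

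**Figure D3:**
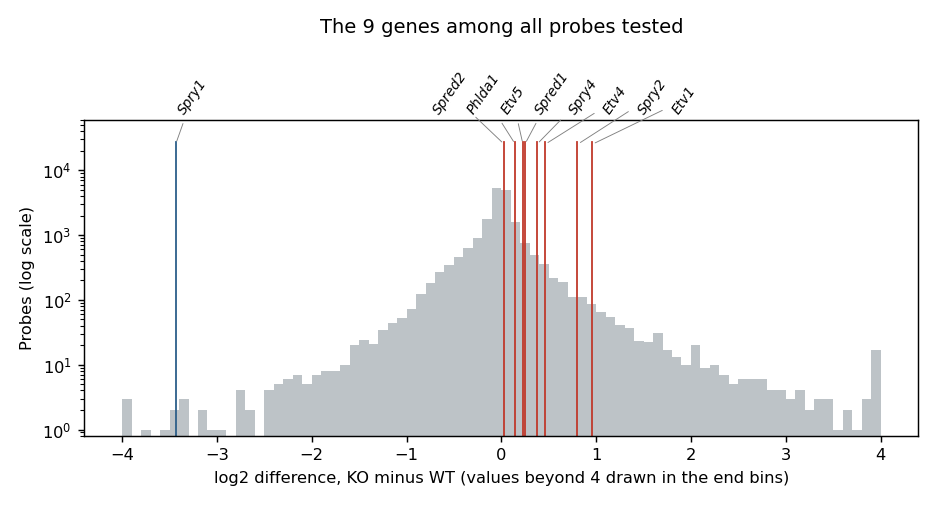
Number of probes (log scale) by log2 difference, KO minus WT, over all 19608 probes tested, with a vertical line for each of the 9 genes. Spry1 stands in the far left tail and the other 8 lines lie between 0.03 and 0.96.

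By values relative to the WT mean over the 6 arrays, the named genes nearest to Spry1 were Htra1 (root mean square log2 distance 0.09) and Hoxb7 (0.12), among 5720 candidates. Nearest to Spry2 were Lims2 and Rgcc, both at 0.06 to 0.07, and nearest to Etv1 were Mmp19 and Rassf8, at 0.05 and 0.06. Socs4 and Rasd1 lay nearest to Etv4 (0.06 each). For the dim genes the nearest were Msln and Fcgrt for Spry4, Zfp358 and Gpc4 for Spred1, and Slc30a1 and M6pr for Etv5, at 0.01 to 0.03. These distances describe size and spread over 2 genotypes and nothing more.

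Other genes of the pathway were counted from 6 lists, each gene by its brightest probe. Of 78 measured genes 14 were higher, 6 lower and 58 did not pass, so 25.6% passed, against 22.5% of all probes, with a median log2 difference of 0.02. Without WT replicate 1 the higher count was 9 and without WT replicate 3 the lower count was 3. With the authors' intensities 8 were higher and 0 lower in limma, and 7 were lower at an unadjusted p under 0.05.

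Of 12 measured genes on the list of feedback inhibitors other than the 9 genes, 3 rose, 2 fell and 7 did not pass, with a median of 0.06. Dusp7, a phosphatase of ERK, rose 1.33-fold (limma adjusted p = 0.0091), Rasa3, which helps Ras to inactivate itself, 1.55-fold (0.017) and Pea15a, which holds ERK in the cytoplasm, 1.31-fold (0.015). Dusp9, also an ERK phosphatase, was at least 1.12-fold lower (0.013) and Ptpn11, which in fact promotes Ras signalling, at least 1.26-fold lower (0.041). Both were near background on every KO array. All 5 calls were lost with offset 0 and with the authors' intensities. Leaving out WT replicate 1 kept 1 higher and 1 lower call, and leaving out WT replicate 3 kept the call of Dusp7 alone. Dusp6, the ERK phosphatase named here after its values were seen, differed by -0.37 (SE 0.21, adjusted p = 0.30), with an SD of 0.45 among KO arrays.

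Among 19 measured partners and regulators of Sprouty and Spred proteins, 4 rose, 2 fell and 13 did not pass, with a median of 0.06. Cav1, the membrane scaffold caveolin, had 1229, 877 and 1116 units in KO, against 243, 234 and 245 in WT, and rose 3.13-fold (limma adjusted p = 1.5e-04). Grb2, the adaptor that links receptors to Sos, rose 1.76-fold (8.7e-04). Siah2, a ubiquitin ligase that targets Sprouty proteins, had 130, 130 and 66.8 units in KO, against 193, 223 and 165 in WT, and was 1.80-fold lower (0.0022), a call lost with the authors' intensities (0.052). Nedd4, a further ubiquitin ligase of Sprouty, rose 1.62-fold (0.012) and the phosphatase subunit Ppp2ca 1.33-fold (0.042). Nedd4 lost its call without WT replicate 1 (0.053) or WT replicate 3 (0.056), and Ppp2ca without KO replicate 1 (0.12) or any WT replicate (0.084 to 0.16). Gab1, a docking protein, was at least 1.09-fold lower (0.048), above background on 1 of 3 WT arrays, and was lost without any 1 of 5 arrays (0.052 to 0.14), the exception being KO replicate 3. With the authors' intensities Nedd4, Ppp2ca and Gab1 did not pass either (0.055 to 0.19).

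Of the 19 other measured ETS genes only Elk3, a partner of serum response factor, passed. It had 463, 481 and 489 units in KO, against 240, 276 and 229 in WT, and rose 1.46-fold (limma adjusted p = 0.0031), while 10 of the 19 were near background on all 6 arrays. The list had a median of 0.01, and 4 of its genes had an unadjusted p under 0.05. Whether the PEA3 genes differ from other ETS genes was not tested.

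Other ERK output genes had 4 higher, 1 lower and 14 not passing of 19 measured, with a median of 0.06. Areg, a ligand of the EGF receptor, had 266, 212 and 175 units in KO, against 25.2, 23.6 and 26.5 in WT, and rose 3.02-fold (log2 difference 1.59, limma adjusted p = 6.9e-06). The difference of Areg was 2.63 with offset 0 and 2.82 with the authors' intensities. Hmga2, an architectural chromatin protein, rose 2.93-fold (9.6e-05), Plaur, the urokinase receptor, 2.25-fold (5.2e-04) and Ier3, an early response gene, 1.84-fold (6.0e-04). Epha2, an ephrin receptor, was 1.36-fold lower (0.0078), a call lost with offset 0 (0.069) and the authors' intensities (0.095). Fos and Junb were near background on all 6 arrays and Egr1 on 5, its spot on KO replicate 3 being masked. At this signal a fall or a small rise in them was not detectable. A large rise was, since Phlda2 was called with means of 3.35 units in WT and 80.3 in KO. Mean intensities of Fos were 5.14 units in WT and 8.50 in KO, and those of Junb 4.38 and 7.74. Neither gene showed a rise of that size. Among 9 measured growth factor receptors Pdgfrb, the PDGF receptor β, was 1.47-fold lower (0.0012) and Fgfr2 at least 1.03-fold higher (0.023), with WT arrays near background, and 7 did not pass. Pdgfrb lost its call with the authors' intensities (0.063), and Fgfr2 with the same (0.061) and without KO replicate 1 (0.077), WT replicate 1 (0.075) or WT replicate 2 (0.088).

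**Figure D4:**
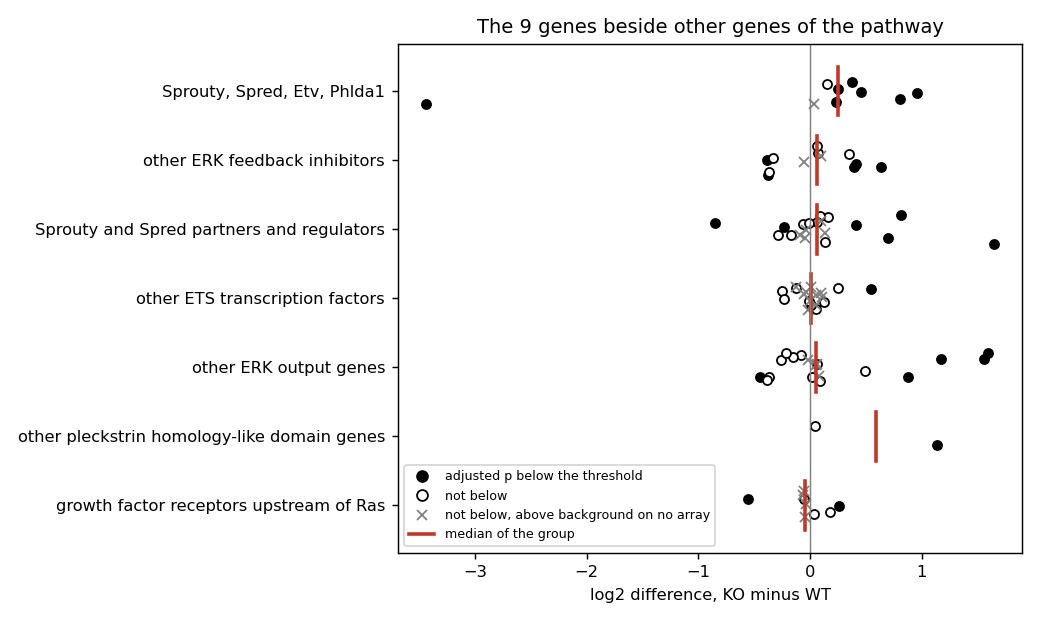
Log2 difference (KO minus WT) of the 9 genes and of each measured gene of the 6 pathway lists, one point per gene, with a red line at each group's median. The medians are 0.25 for the 9 genes and between -0.05 and 0.06 for the lists of over 2 genes, and Spry1 lies lowest of all points.

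Markers of other cell types were mostly near background. Of 7 epithelial markers Krt18, a keratin, was higher in KO (at least 2.16-fold, limma adjusted p = 1.15e-05) and the other 6, with Cdh1 and Epcam, were near background on all arrays. Summed epithelial intensities were 99.6 to 160 units in KO, against 23.4 to 34.4 in WT. Krt18 alone had 125, 137 and 91.2 units in KO, against -0.353, 3.87 and 6.06 in WT. All 5 endothelial markers were near background, and 0 passed in limma, with 0 at an unadjusted p under 0.05. Of 3 blood markers Ptprc and Itgam were near background and Cd14 did not pass (0.32, limma adjusted p = 0.075). Blood marker sums were 1434 to 1906 units in KO and 922 to 1298 in WT. Nearly all of each was Cd14, with 1898, 1818 and 1425 units in KO and 1291, 1083 and 916 in WT. Tnnt2, a troponin and 1 of 2 muscle markers measured, was 1.56-fold lower (-0.64, limma adjusted p = 4.6e-04, and -1.26 with offset 0). Muscle marker sums were 28.4 to 37.4 units in KO and 60.7 to 89.2 in WT. Most of each was Tnnt2, with 36.3, 35.1 and 25.3 units in KO and 65.6, 84.3 and 57.9 in WT. The part of these cell types in the differences of the 9 genes was not tested.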

How the data were processed

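Each of the 6 cultures was hybridised to 1 CodeLink 20K mouse array. Per the labels, culture RNA was in Cy5 and a pool of the same genotype in Cy3, but each file holds 1 channel, taken here as the culture's because the name in the file is a culture's. If it were the pool's, the arrays of a genotype would repeat 1 RNA. The deposited intensity equals the mean spot intensity minus median local background, and the authors' normalized intensity is that value divided by 1 constant per array. limma is named in the submitters' processing notes. The names in the files of KO replicates 2 and 3, and their columns in the value table, are exchanged against the titles, which are followed here.

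Spots with a masked, contaminated or irregular mark were dropped here. Normexp (offset 50) was applied to mean spot and median background intensities, control spots were dropped, and log2 values were quantile normalized and compared by lmFit and eBayes in limma 3.58.1 (R 4.3.3), two-sided, over 19608 probes with at least 1 value per group. Only lmFit and eBayes were tried on simulated log2 values, with the same spread for every probe. Background correction and normalization were not covered. Probes were named by RefSeq accession (10712) or unique synonym (101) in a GRCm38.p6 table, and 8988 stayed unnamed. The array numbers run 2 to 4 in KO and 5 to 7 in WT, so array order and genotype cannot be told apart. Named besides the 9 genes are Mapk14, Hras, up to 6 called genes of each list by smallest adjusted p, 2 nearest genes per called gene, and set markers. Other names (Dusp6, Phlda3, Fos, Egr1, Junb, dim markers and Cd14) were chosen after their values were seen. The genes, lists and tests were chosen with earlier results of these data known. Number of arrays limits precision.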

Additional observations from a re-analysis of the deposited data

How the results depend on the processing

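Spry1, Spry2, Spry4 and Etv1 kept their direction and call under all 14 alternatives. Of all probes 2046 were higher and 2374 lower. The lower count was 1331 with offset 0 and 1345 under median scaling, and the counts were 1217 and 1044 with the authors' intensities. Leaving out 1 array gave 1522 to 2664 higher and 1664 to 3151 lower. Of the 9 genes 4 to 6 were higher and 1 lower throughout, 4 without background correction, without WT replicate 1 and with the filter on dim probes, which left out Spred1, Spred2 and Etv5. Pathway genes were 14 higher and 6 lower, 3 lower with offset 0, 8 and 0 with the authors' intensities (7 lower at an unadjusted p under 0.05), and 9 to 20 and 3 to 9 with 1 array left out. Etv4 was lost with offset 0 (0.62) and the authors' intensities (0.67). Spred1 (0.19) and Etv5 (0.12) were lost without background correction. Leaving out 1 array moved Spred1 between 0.23 and 0.26, Etv5 between 0.20 and 0.26 and Hras between 0.18 and 0.42, passing without KO replicate 1 (adjusted p = 0.043). Hras also passed under median scaling (0.52, adjusted p = 0.0050). Spred2, at 0.03, turned to -0.0165 under median scaling, and leaving out 1 array moved it between -0.0181 (without WT replicate 3) and 0.0638. The pair Etv4 and Etv5 turned to -0.24 with offset 0 and -0.45 with the authors' intensities, and Spry2 and Spry4 to -0.0806 with the authors' intensities. The cause was not tested. No litter, batch or day shared by replicate numbers is stated. Deviations of same-numbered arrays correlated at 0.24, -0.12 and 0.10, and not every array correlated best with its own number. By the names in the files, KO replicate 3 falls with WT replicate 2 (0.20) and KO replicate 2 with WT replicate 3 (-0.09). With 3 arrays per genotype these values cannot decide whether the numbers pair the cultures. With the replicate block the calls of Etv5 (0.23, adjusted p = 0.056), Ppp2ca (0.065) and Gab1 (0.077) were lost, and 5 of the 9 genes were higher and 1 lower. Over the single lists, the other genes named and the pairs, 439 values stayed on their side, 40 moved, 52 calls were lost, 1 was gained and 3 turned, which are those of the pairs above. Dim signal limits Spred2, and the size of Spry4, Spred1 and Etv5.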
